A study of Mus musculus with 18 samples.

Results

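Histone genes encode the proteins that DNA is wound on, and 44 of the 19937 genes read by an array probe set of their own belonged to this family. The family was chosen with earlier results of these data known, and every gene with a matching name was taken. In the older nomenclature these names were Hist1h, Hist2h, Hist3h, Hist4h, H1f and H2af. In the current one they were H1f, H2ac, H2bc, H3c, H4c, H2az and H3f. The brightest probe set was kept where a gene had more than 1. The current name brought in 33 members and an older name 11. They comprise 8 linker H1 genes, 5 H2A, 11 H2B, 3 H3 and 7 H4 genes, and 10 genes for replacement variants. Of the 44 members, 40 passed a filter on dim probe sets and were tested, while H1f8, H2ac8, H3c7 and H3f3a did not pass. H2bu1-ps and Macroh2a3 are annotated as pseudogenes.

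Total RNA of mouse embryonic fibroblasts of strain 129sv/ev was read on 18 arrays, 3 in each of 6 groups. Wild-type cells (WT) were grown in isotonic medium, in hypertonic medium, or in either of them after 1 h with 100 nM Torin1, which inhibits the growth kinase mTOR. Cells labelled as Nfat5 knockout (KO) were grown in both media and received no Torin1. The product of Nfat5 is a transcription factor that switches on osmolyte genes under hypertonic stress. The array titles write 300 for isotonic and 500 for hypertonic medium without a unit, and the labels used here do not state how long the cells stayed in hypertonic medium. All WT arrays carry 1 line name and the KO arrays another, so line and genotype cannot be told apart. Each group holds arrays numbered 1, 2 and 4. Separate cultures are not mentioned in the labels, and p-values cover only the spread between these arrays.

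Replication-dependent histone genes are transcribed during S phase, and their messages end in a stem-loop in place of a poly(A) tail. Replacement variants such as H2A.Z, macroH2A and H3.3 are made throughout the cell cycle from ordinary polyadenylated messages, while H2A.X is made from a stem-loop message in S phase and from a longer polyadenylated one. Linker H1 proteins bind where DNA enters and leaves the nucleosome and help to compact chromatin. Members of a family are close copies of each other, so a probe set that names 1 histone gene may also pick up the messages of its relatives, and this was not tested. In RNA from whole cultures, more cells in S phase and more histone message per cell cannot be told apart.

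The upstream sequences of 4 members that rose in hypertonic WT cells (H1f3, H1f2, H2bc8 and H3c4) and of 2 that did not pass there (H4c4 and H2bc9) are shown because they lie in the same chromosome 13 cluster, with and without a call. Each runs 5′ to 3′ over the 200 bases before the annotated start, on the gene's strand, from RefSeq on GRCm38.p6. The stretches are chr13:23554832-23555031 (plus strand) for H1f3, chr13:23738607-23738806 (plus) for H1f2, chr13:23571200-23571399 (plus) for H2bc8 and chr13:23575563-23575762 (plus) for H3c4. Those of the other two are chr13:23581368-23581567 (plus) for H4c4 and chr13:23543445-23543644 (minus) for H2bc9. Capitals mark matches on either strand to CCAAT, to the TATA box letters TATAAA, to the octamer ATTTGCAT known from H2B promoters, to the H1 box AAACACA known from H1 promoters, and to TGGAAA, the constant start of the element that NFAT5 binds.
H1f3: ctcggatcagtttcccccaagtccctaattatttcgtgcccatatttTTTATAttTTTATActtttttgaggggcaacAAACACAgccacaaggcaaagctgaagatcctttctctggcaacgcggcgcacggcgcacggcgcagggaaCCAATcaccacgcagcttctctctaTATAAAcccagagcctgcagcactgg
H1f2: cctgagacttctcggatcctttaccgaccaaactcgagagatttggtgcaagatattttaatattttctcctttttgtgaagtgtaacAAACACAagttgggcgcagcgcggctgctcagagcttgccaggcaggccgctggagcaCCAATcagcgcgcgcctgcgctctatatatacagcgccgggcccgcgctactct
H2bc8: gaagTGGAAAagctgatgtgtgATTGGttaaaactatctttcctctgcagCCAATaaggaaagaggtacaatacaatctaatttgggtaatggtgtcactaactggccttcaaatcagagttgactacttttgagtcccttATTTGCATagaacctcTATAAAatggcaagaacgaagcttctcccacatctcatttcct
H3c4: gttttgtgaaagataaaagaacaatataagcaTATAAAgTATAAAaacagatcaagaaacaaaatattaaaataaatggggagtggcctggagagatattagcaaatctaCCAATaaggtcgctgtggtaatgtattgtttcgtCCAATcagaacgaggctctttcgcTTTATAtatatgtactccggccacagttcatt
H4c4: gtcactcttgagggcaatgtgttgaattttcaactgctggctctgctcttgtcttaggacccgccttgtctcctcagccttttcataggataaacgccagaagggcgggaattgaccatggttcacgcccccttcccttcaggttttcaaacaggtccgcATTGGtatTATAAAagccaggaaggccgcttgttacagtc
H2bc9: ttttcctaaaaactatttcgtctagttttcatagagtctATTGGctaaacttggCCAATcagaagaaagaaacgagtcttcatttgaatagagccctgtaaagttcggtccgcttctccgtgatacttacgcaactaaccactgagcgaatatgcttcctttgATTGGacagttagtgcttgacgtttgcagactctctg
On the other strand CCAAT is spelled ATTGG in capitals, TATAAA becomes TTTATA, the octamer becomes ATGCAAAT, the H1 box becomes TGTGTTT and the NFAT5 letters become TTTCCA. No matches of different motifs overlap in the stretches shown. H1f3 and H1f2 both carry an AAACACA, 122 and 112 bases before the start, and a CCAAT 51 and 54 bases before it. In H2bc8 an ATTTGCAT lies 59 bases and a TGGAAA 196 bases before the start. H4c4, which did not pass, has a reverse CCAAT and a TATAAA 40 and 32 bases before its start. RefSeq promoters of 300 bases were matched for 37 of the 44 members. CCAAT was found in 29 of these 37 windows and in 37.4% of all 32851 windows, and TATAAA in 16 of them and in 13.6% of all. ATTTGCAT was present in 9 member windows (1.74% of all windows), AAACACA in 9 (7.18%) and TGGAAA in 5 (21.4%). AAACACA occurred in H1f2, H1f3, H1f5 and H1f6 among the linker genes, of which H1f2 and H1f3 rose in hypertonic WT cells and the other two did not pass. These are letter matches and no measure of binding.

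Before the results, the samples were checked. Fibroblast markers fitted the label, with 11 of 12 above the filter in every group and a list mean from 10.72 to 11.87 log2. Markers of other cell types were partly above it in every group as well, 3 of 7 for macrophages, 5 of 6 for epithelial cells, 2 of 5 for endothelial cells, 2 of 4 for skeletal muscle and 1 of 5 for germ cells, at list means from 5.06 to 7.06. Those below it in every group were Adgre1 and Ptprc (macrophage), Kdr (endothelial), Myf5 (skeletal muscle) and Ddx4, Dazl, Sycp3 and Pou5f1 (germ cell). Adipocyte markers differed between the lines, with a list mean of 6.56 in isotonic WT and 8.40 in isotonic KO cells. KO minus WT differences of Nfat5 itself were -0.26 ± 0.16 log2 without hypertonic stress (limma adjusted p = 0.367) and -0.44 ± 0.16 with it (0.0503, and 0.00591 in a fit with array number as a block). Whether this probe set reads the deleted part of the gene was not tested. Slc5a3, a known NFAT5 target for myo-inositol uptake, stood at 8.26, 8.68 and 8.75 in isotonic and 11.75, 11.63 and 10.88 in hypertonic WT arrays 1, 2 and 4. In KO arrays it ran the other way, from 11.67, 11.75 and 11.09 without to 10.19, 10.34 and 9.43 with hypertonic stress, so for this gene the KO arrays go against their media labels. Had the media of the KO arrays been exchanged, every KO hypertonic change below would turn its sign. The comparisons of the lines within each medium and the difference of their responses would change as well, which was not tested. With the labels as given, 765 of the 808 genes called for the hypertonic effect in both lines changed in the same direction, and 43 in opposite directions. The title and the genotype label of isotonic KO array 1 disagree, the label calling it wild-type, and the title was followed. The arrays numbered 4 stood apart from numbers 1 and 2 of their group on the second principal component, and counts without them are given beside the results.

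Hypertonic medium raised 11 of the 40 histone genes in WT cells and lowered none. They were the linker genes H1f3, H1f2 and H1f10, the H2A gene H2aw, the H2B genes H2bc8, H2bc4 and H2bc18, the H3 genes H3c4 and H3c15, the H4 gene H4c9, and the variant gene H2ax. The rises ran from 0.61 log2 for H4c9 to 2.72 for H1f3. Calls here mean a limma adjusted p below 0.05 over all 15711 genes tested, of which 8.24% were called (3.94% higher and 4.3% lower). Statements that the arrays of called genes do not overlap restate the values behind the calls and are no separate test. The median change was 0.11 over the histone genes and 0.02 over all genes, so the rise lay in some members and not across the family. With the arrays numbered 4 left out, 15 members passed, all higher, as did 11% of all genes in that direction.

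H1f3, 1 of the replication-dependent linker genes, read 7.23, 7.25 and 6.64 log2 in isotonic WT arrays 1, 2 and 4 and 10.26, 9.60 and 9.43 in the hypertonic ones. It rose by 2.72 ± 0.35 (6.61-fold, limma adjusted p = 0.000561), and every hypertonic array lay above every isotonic array. H1f2, a second replication-dependent linker gene, read 11.86, 11.43 and 10.93 in isotonic and 13.05, 12.97 and 13.17 in hypertonic WT arrays, a rise of 1.66 ± 0.29 (3.16-fold, limma adjusted p = 0.00354). H1f10 encodes a linker histone made outside S phase as well. It read 11.40, 10.80 and 10.65 in isotonic and 11.77, 11.82 and 11.72 in hypertonic WT arrays and rose by 0.82 ± 0.16 (1.77-fold, limma adjusted p = 0.00638). The groups do not overlap for either gene. H1f5 (0.64 ± 0.33) and H1f1 (0.22 ± 0.49), also replication-dependent, did not pass, and the testis genes H1f6 (-0.04 ± 0.12) and H1f7 (-0.07 ± 0.13) stayed within 0.1 log2 of their isotonic level. So 3 of 7 tested linker genes rose, and those that did not pass include both replication-dependent and testis genes.

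**Figure D1:**
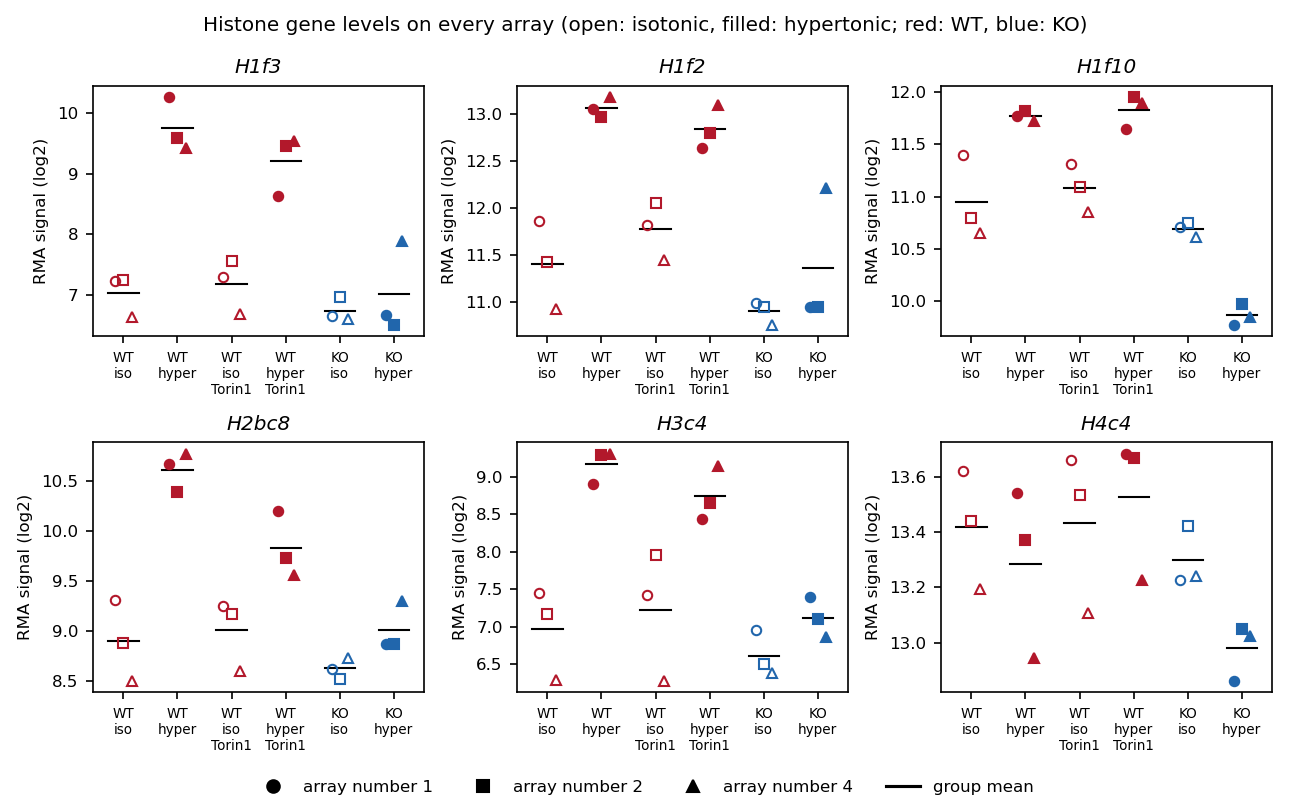
RMA signal (log2, vertical axis) of 6 histone genes on all 18 arrays, by group (horizontal axis: medium and Torin1 as labelled, open markers isotonic and filled ones hypertonic, WT in red and KO in blue). Marker shapes give the array number and bars the mean of 3 arrays. H1f3, H1f2, H2bc8 and H3c4 are higher in every hypertonic WT array than in any isotonic WT array, H1f10 is lowest in the hypertonic KO arrays, and H4c4 shows overlapping WT groups.

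Among the core histone families, H2A, H2B and H4 held members with and without a call, and both tested H3 genes rose in their own probe sets. Of 9 further probe sets that name the same 12 H3 genes, H3c4 and H3c15 among them, 8 did not pass in WT cells. H3c4 read 7.45, 7.18 and 6.29 in isotonic and 8.91, 9.28 and 9.31 in hypertonic WT arrays, and rose by 2.20 ± 0.36 (4.58-fold, limma adjusted p = 0.00238). H3c15, the other tested H3 gene, read 6.62, 6.69 and 6.83 against 8.37, 7.73 and 7.65 and rose by 1.20 ± 0.20 (2.30-fold, limma adjusted p = 0.00293). Neither pair of groups overlaps. Of 11 H2B genes 3 rose. H2bc8 read 9.31, 8.88 and 8.50 in isotonic and 10.68, 10.39 and 10.78 in hypertonic WT arrays (1.72 ± 0.22, limma adjusted p = 0.000561). H2bc4 read 12.02, 11.75 and 11.48 against 12.99, 12.85 and 13.26 (1.28 ± 0.18, 0.000846), and H2bc18 read 9.64, 9.55 and 9.08 against 10.64, 10.27 and 10.19 (0.94 ± 0.23, 0.0196). For all 3 the hypertonic arrays lay above the isotonic ones, while the other 8 H2B genes changed by -0.44 (H2bc3) to 0.39 (H2bc21) and did not pass. Further probe sets that name H2bc4 and H2bc8 together with other H2B genes changed by -0.30 to 0.27, and none of them passed. Among 4 tested H2A genes H2aw, from a small cluster outside the main one, rose by 1.09 ± 0.23 (limma adjusted p = 0.0102), and H2ac15 (-0.09 ± 0.18), H2ac1 and H2ac4 (-0.48 ± 0.60) did not pass. Of 7 H4 genes, which encode the same protein, H4c9 rose by 0.61 ± 0.15 (limma adjusted p = 0.0242). The other 6 did not pass, and their median with H4c9 was -0.04. Further probe sets that name H4c9 together with other H4 genes changed by -0.03 to 0.26, and none of them passed. H4c4, with 13.62, 13.44 and 13.19 in isotonic and 13.54, 13.37 and 12.94 in hypertonic WT arrays, is an example of overlapping groups.

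Among the replacement variants H2ax had the sole call in WT cells. H2ax, whose product is phosphorylated around DNA breaks, read 10.57, 10.51 and 10.36 in isotonic and 11.49, 11.30 and 10.61 in hypertonic WT arrays and rose by 0.66 ± 0.19 (limma adjusted p = 0.041). Its hypertonic array 4 lay close to the isotonic arrays. A further probe set naming 19 genes, H2ax among them, changed by -0.33 ± 0.25 and did not pass. H2aj (0.45 ± 0.16, limma adjusted p = 0.107) and H2az1, an H2A.Z gene (0.37 ± 0.14, 0.138), did not pass. H2az2 (-0.13 ± 0.11) and the macroH2A genes Macroh2a1 (-0.15 ± 0.12) and Macroh2a2 (-0.13 ± 0.11), which encode large variants found on silent chromatin, did not pass either. Nor did the testis variants H2ab1 and H2al2a or Macroh2a3, so 1 of 9 tested variant genes rose.

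Leaving out single arrays ended 4 of the 11 calls and left 7 to 11 members past. H2ax was lost without hypertonic WT array 1 (limma adjusted p = 0.2) or 2 (0.154) and without isotonic WT array 1 (0.0762), 2 (0.0859) or 4 (0.12). H2bc18 was lost without hypertonic WT array 1 (0.104) or 2 (0.0501) or isotonic WT array 4 (0.0815). H4c9 was lost without hypertonic WT array 1 (0.126) or isotonic WT array 1 (0.0928) or 4 (0.0636), and H2aw without hypertonic WT array 1 (0.0613), where 7 members passed. Fitted on the isotonic and hypertonic WT arrays alone, 6 passed, and H1f10 (0.0854), H2aw (0.0916), H2ax (0.17), H2bc18 (0.0614) and H4c9 (0.128) did not. The share of all genes called was not counted in these smaller fits.

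**Figure D2:**
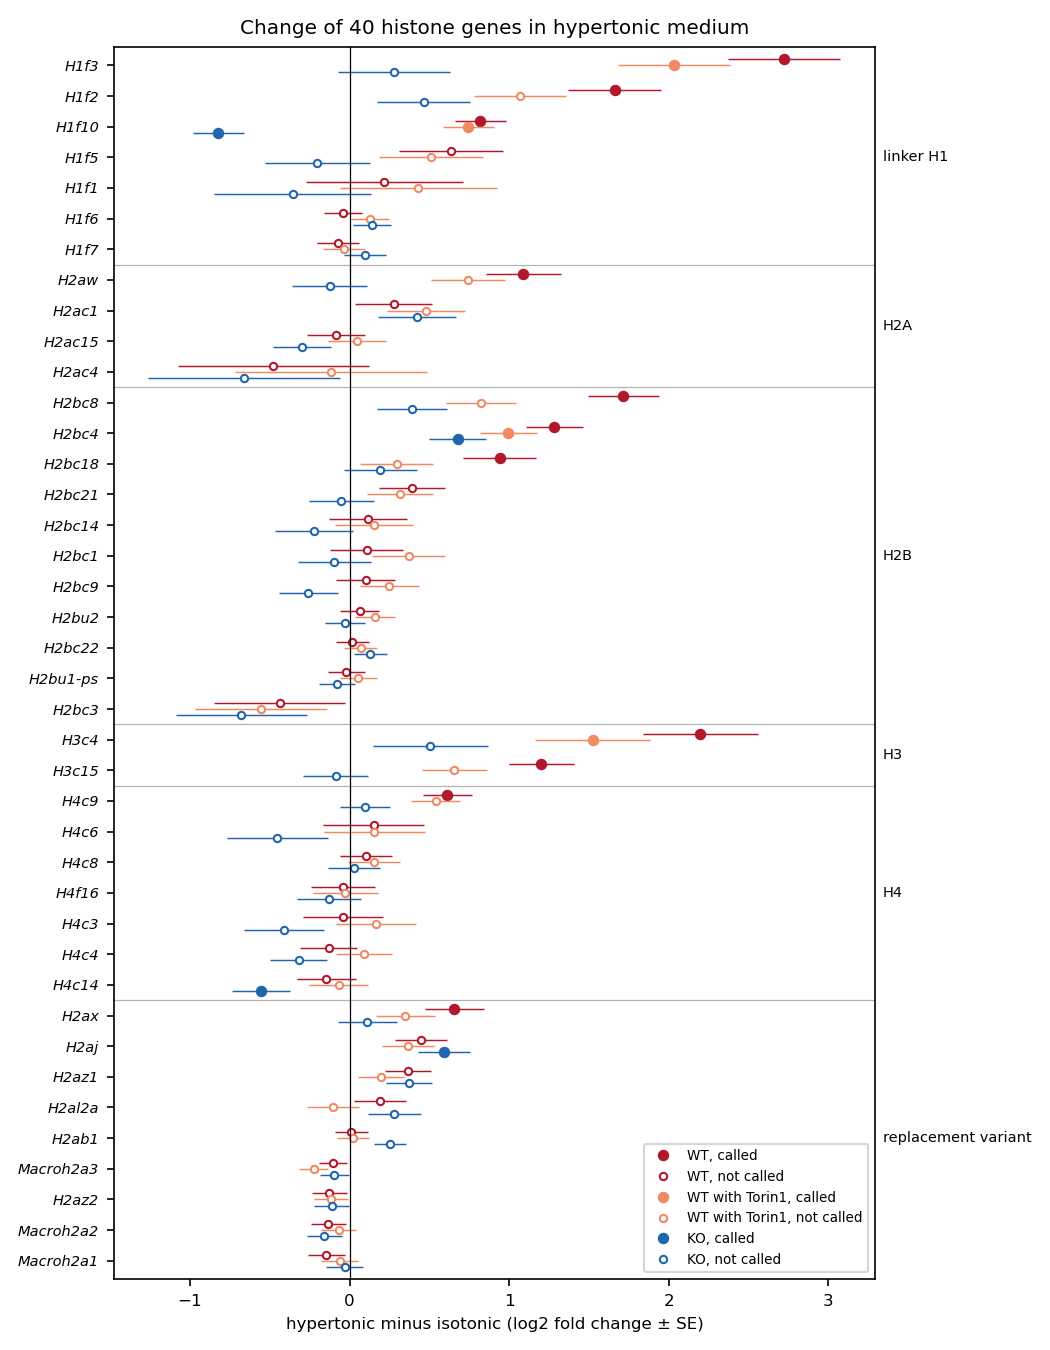
Log2 fold change of the 40 tested histone genes in hypertonic against isotonic medium (horizontal axis, points ± standard error, n = 3 arrays per group) in the WT line, the same line under Torin1 and the KO line. Filled points passed at a limma adjusted p below 0.05, which was so for 11 genes in WT, 4 under Torin1 and 4 in KO, with H1f10 on opposite sides of 0 in the lines.

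Several of the large rises lay near each other on chromosome 13, in the order of genes on GRCm38.p6. From H1f3 the members run H1f3, H2ac8, H2bc8, H3c4, H4c4, H2bc4, H1f6, H4c3 and H1f2, and 5 of these rose in WT cells. H4c4 (-0.13), H1f6 (-0.04) and H4c3 (-0.04), which did not pass, lie between them, and H2ac8 was not tested. Both ends of this stretch are genes that rose, so the count within it is no test of clustering. Over all 40 tested members 27.5% were called. The next genes, H2bc3 (-0.44 ± 0.41) and H2ac4 (-0.48 ± 0.60), did not pass. No coding gene separates H2bc4 from H1f6 or H3c4 from H4c4, so neighbours with and without a call were adjacent in the annotation. H4c9 lies outside this stretch, and H2bc18 and H3c15 are on chromosome 3, H2aw on 11, H1f10 on 6 and H2ax on 9. The probe sets of H1f2, H3c4 and H3c15 list cDNA clones and no RefSeq transcript, the only 3 members of which this is true, and all 3 rose (picked out after their values were seen).

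**Figure D3:**
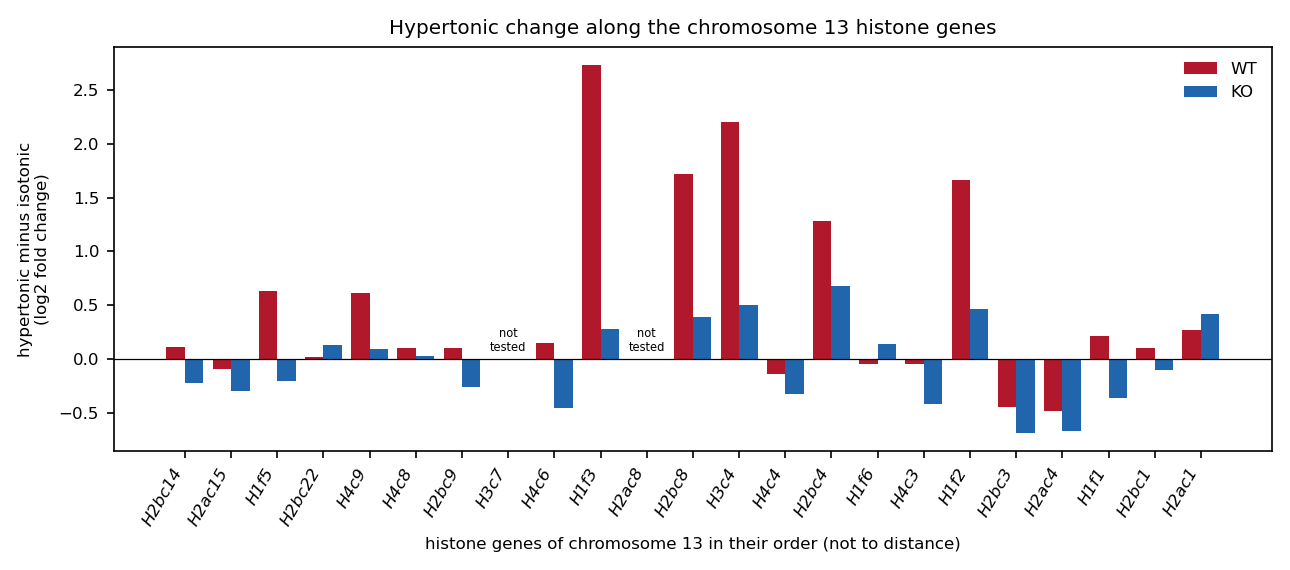
Hypertonic minus isotonic log2 fold change (vertical axis) of the 23 members in the chromosome 13 histone clusters, in gene order (horizontal axis, not to distance), in WT (red) and KO (blue) cells. H1f3, H2bc8, H3c4, H2bc4 and H1f2 form the tall WT bars, interrupted by H4c4, H1f6 and H4c3 near 0, and H3c7 and H2ac8 were not tested.

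With Torin1 the same comparison in WT cells called 4 histone genes, all higher, against 3.37% of all genes (1.65% higher and 1.72% lower). H1f3 read 7.29, 7.56 and 6.69 in isotonic and 8.64, 9.46 and 9.54 in hypertonic Torin1 arrays and rose by 2.03 ± 0.35 (limma adjusted p = 0.00539). H3c4, at 7.42, 7.95 and 6.28 against 8.44, 8.64 and 9.14, rose by 1.52 ± 0.36 (0.0287). H2bc4 (0.99 ± 0.18, 0.007) and H1f10 (0.74 ± 0.16, 0.0191) rose as well, and for all 4 the groups do not overlap. H1f2 (1.07 ± 0.29, limma adjusted p = 0.0564), H2bc8 (0.83 ± 0.22, 0.0528), H2aw (0.74 ± 0.23, 0.0997), H3c15 (0.66 ± 0.20, 0.0962) and H4c9 (0.54 ± 0.15, 0.0694) missed the threshold. In the fit blocked by array number these 5 passed too (0.0421, 0.024, 0.0435, 0.046 and 0.0406), 9 members in all, and the share of all genes called rose from 3.37% to 7.86%. H2bc18 (0.30 ± 0.23) and H2ax (0.35 ± 0.19) did not pass in either fit. Arrays 1 and 2 alone gave 8 members higher and 1 lower, against 5.53% and 4.42% of all genes, and there the rise of H3c4 was 0.85. Single arrays ended calls of H1f10, without hypertonic Torin1 array 2 (0.101) or isotonic Torin1 array 2 (0.06) or 4 (0.0792), and of H3c4, without hypertonic Torin1 array 2 (0.0981) or 4 (0.0837) or isotonic Torin1 array 1 (0.0746) or 4 (0.1). Only 2 members passed without hypertonic Torin1 array 2 or isotonic Torin1 array 4. H2bc8 passed without hypertonic Torin1 array 4 (0.0452), with the dim filter at the 50th percentile (0.0473), after quantile normalization (0.0464) and with a trended and robust prior (0.04997). On the 6 Torin1 arrays alone none passed, and the share of all genes called in that fit was not counted.

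Torin1 itself changed no histone gene past the threshold in either medium. In isotonic medium 0% of all genes were called. There 1 member, H2az1, had an unadjusted limma p below 0.05 (-0.40 ± 0.14), as had 2.99% of all genes. In hypertonic medium 0.115% of all genes were called. There 5 of the 40 members had an unadjusted p below 0.05, all lower with Torin1, a share close to the 12.1% of all genes. H2az1 read 12.33, 12.22 and 12.11 in hypertonic arrays without and 11.77, 11.42 and 11.78 with Torin1 (-0.56 ± 0.14, limma adjusted p = 0.118). H2bc8 read 10.20, 9.73 and 9.56 with Torin1 (-0.78 ± 0.22, 0.144), and H3c15 (-0.67 ± 0.20) and H2bc18 (-0.60 ± 0.23) did not pass either. H2ax differed by -0.51 ± 0.19, and it passed without hypertonic WT array 4 (-0.77, limma adjusted p = 0.0383). With numbers 1 and 2 alone, 4 members passed, all lower with Torin1, against 1.76% of all genes lower. The test of whether the hypertonic change itself differs with Torin1 called no gene at all (0%), and 1 member, H2bc8, had an unadjusted p below 0.05 (-0.89 ± 0.31), against 2.02% of all genes. For H1f3 that difference was -0.69 with a 95% interval from -1.75 to 0.36, and for H1f10 -0.08 with one from -0.56 to 0.41, so either direction lies within them.

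In the KO line hypertonic medium called 4 of the 40 histone genes, 2 higher and 2 lower, where 30.1% of all genes were called (12.9% higher and 17.2% lower). The members' share of 10% lies below that of all genes. H1f10 fell: it read 10.70, 10.75 and 10.61 in isotonic and 9.77, 9.97 and 9.85 in hypertonic KO arrays, a change of -0.82 ± 0.16 (limma adjusted p = 0.00108). H2bc4 rose, from 11.87, 11.74 and 11.54 to 12.35, 12.08 and 12.75 (0.68 ± 0.18, limma adjusted p = 0.00883), as did H2aj, whose product is an H2A variant known from senescent cells (0.59 ± 0.16, 0.0121). H4c14 fell by 0.56 ± 0.18 (limma adjusted p = 0.0322). H1f3 read 6.65, 6.97 and 6.61 in isotonic and 6.67, 6.51 and 7.89 in hypertonic KO arrays (0.28 ± 0.35), and H1f2 10.99, 10.95 and 10.76 against 10.95, 10.94 and 12.21 (0.46 ± 0.29). In both genes hypertonic KO array 4 stood above the other KO arrays, and the groups overlap. H2bc8 (0.39 ± 0.22), H3c4 (0.50 ± 0.36), H2aw (-0.13 ± 0.23), H3c15 (-0.09 ± 0.20), H4c9 (0.10 ± 0.15) and H2ax (0.11 ± 0.19) did not pass. H2az1 changed by 0.37 ± 0.14 (limma adjusted p = 0.0657). The median change was -0.07, against 0.02 over all genes.

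Setting all array medians equal shifts the median change of all genes in KO cells by 0.15, and H2az1, H2ab1 and H2bc22 then pass as higher while H4c14 does not (limma adjusted p = 0.0964). The call of H4c14 was lost without hypertonic KO array 1 (0.0769), 2 (0.0681) or 4 (0.0709) or isotonic KO array 1 (0.0588) or 2 (0.141), and that of H2aj without hypertonic KO array 4 (0.0594) or isotonic KO array 4 (0.051). On the 6 KO arrays alone H2aj did not pass (0.0713), while H2az1 passed as higher (0.0436) and H4c3 (0.0461) and H4c4 (0.0496) as lower. After quantile normalization H2az1 (0.0483) and H2al2a (0.0446) passed as higher. With isotonic KO array 1 as WT H4c14 did not (0.058). With 1 array left out 2 or 3 members passed. Blocked by array number, H2bc3 (-0.68, limma adjusted p = 0.0182) and H4c3 (-0.41, 0.0376) passed as lower too, and 20.5% of all genes were lower. Without the arrays numbered 4, 2 members were higher and 9 lower, against 16.3% and 20.9% of all genes. H2aj then missed the threshold (0.30, limma adjusted p = 0.148). H2bc4 kept its call with a smaller rise of 0.41 (0.026).

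The lines were then compared within each medium, with the KO media as labelled. In isotonic medium 1 histone gene passed, against 14.6% of all genes (7.78% higher and 6.84% lower): Macroh2a1 read 11.42, 11.67 and 11.66 in WT and 10.98, 11.04 and 11.24 in KO arrays, and was lower in the KO line by -0.50 ± 0.12 (limma adjusted p = 0.00781). Counting isotonic KO array 1 as WT moved this to -0.30 (0.464), and none passed. In the blocked fit H1f1 (-1.13 ± 0.49 in the fit without a block, limma adjusted p = 0.00652 with it) and H2aw (-0.64 ± 0.23, 0.0414 with it) passed as well, 3 members in all, against 10.2% of all genes lower. H2aw also passed without isotonic WT array 4 (-0.85, 0.0281). H1f3 (-0.30 ± 0.35), H1f2 (-0.50 ± 0.29), H2bc8 (-0.27 ± 0.22) and H3c4 (-0.35 ± 0.36) did not pass, and their isotonic arrays overlap between the lines. Without the arrays numbered 4, 8 members were lower, against 11.2% of all genes, and they include H1f2 (-0.67, limma adjusted p = 0.00222), H2bc8 (-0.52, 0.0334) and H3c4 (-0.58, 0.0472).

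In hypertonic medium 17 of 40 histone genes were lower in the KO line and none higher, where 18% of all genes were lower and 13.8% higher (31.9% called). The median difference was -0.44 over the histone genes and 0.04 over all genes. This comparison shares its WT arrays with the hypertonic effect in WT cells, and all 11 members that rose there are among the 17. Among these 11 the largest differences were in H1f3 (-2.74 ± 0.35, limma adjusted p = 3.01e-05), H3c4 (-2.05 ± 0.36, 0.000477), H1f10 (-1.90 ± 0.16, 4.53e-07), H2aw (-1.85 ± 0.23, 2.65e-05) and H1f2 (-1.70 ± 0.29, 0.000367). H2aw read 12.86, 12.51 and 12.14 in hypertonic WT and 10.34, 10.61 and 10.99 in hypertonic KO arrays. H2bc8 (-1.60 ± 0.22, limma adjusted p = 6.03e-05), H3c15 (-1.34 ± 0.20, 0.000145) and H2bc18 (-0.85 ± 0.23, 0.00968) were lower too. So were H4c9 (-0.66 ± 0.15), H2bc4 (-0.64 ± 0.18) and H2ax (-0.63 ± 0.19). The arrays of the lines do not overlap in any of these genes.

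Another 6 members were lower in hypertonic KO cells without a call for the hypertonic effect in WT cells. The linker gene H1f1 read 10.84, 10.48 and 9.07 in hypertonic WT and 8.38, 8.49 and 8.41 in hypertonic KO arrays (-1.70 ± 0.49, limma adjusted p = 0.0148), and H1f5 differed by -1.01 ± 0.33 (0.0276). H4c3 (-0.79 ± 0.25, limma adjusted p = 0.0246), H2bc21 (-0.70 ± 0.21, 0.0158), H2ac15 (-0.50 ± 0.18, 0.0455) and Macroh2a1 (-0.38 ± 0.12, 0.0204) complete the group. In H1f1 the WT arrays spread over more than 1 log2, and in H2ac15 the arrays of the lines overlap. With H1f10, H1f2 and H1f3, 5 of the 7 linker genes were lower in the KO line, and the testis genes H1f6 (0.21 ± 0.12) and H1f7 (0.19 ± 0.13) did not pass. H2az1 (0.07 ± 0.14), H2az2 (0.23 ± 0.11), H2aj (0.24 ± 0.16) and Macroh2a2 (-0.06 ± 0.11) did not pass either. Adipocyte markers had a list mean of 6.71 in hypertonic WT and 8.54 in hypertonic KO cells, with 3 of the 4 above the filter in every group, and fibroblast markers 10.73 and 11.71. Their part in the result was not tested.

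Several of these calls depended on single hypertonic arrays, and 12 to 19 members passed with 1 array left out. How many of all genes passed in those fits was not counted. H2ac15 was lost without KO array 1 (limma adjusted p = 0.078), 2 (0.0775) or 4 (0.126) or WT array 1 (0.171) or 2 (0.154). H1f5 was lost without KO array 1 (0.0682) or 2 (0.113) or WT array 1 (0.0921) or 2 (0.0744), and H4c3 without KO array 2 (0.0532) or 4 (0.0823) or WT array 1 (0.0987) or 2 (0.0821). Macroh2a1 was lost without KO array 1 (0.0583) or 2 (0.0877) or WT array 4 (0.0935). The calls of H1f1 (0.0693 and 0.0603) and H2ax (0.083 and 0.0711) were lost without WT array 1 or 2, that of H2bc21 without KO array 4 (0.0589) or WT array 4 (0.0607), and that of H2bc4 without KO array 2 (0.071) or WT array 4 (0.0555). Without WT array 4, H2bc14 (0.0433), H2bc9 (0.0222), H2bu1-ps (0.0194), H4c14 (0.0125) and H4c6 (0.0332) passed as lower, and without KO array 1 H2aj passed as higher (0.0265). The fit blocked by array number called 23 members lower, adding H2ac4, H2bc14, H2bc9, H2bu1-ps, H4c14 and H4c6, against 22% of all genes lower. Without the arrays numbered 4, 27 were lower, against 22.2% of all genes. After quantile normalization H4c3 did not pass (0.0674) and H4c14 did (0.047). Without the dim filter H2ac15 did not pass (0.0523), and H2ac8, not tested otherwise, was lower (0.0441). On the 6 hypertonic arrays alone H2ac15 (0.0978), H2ax (0.0744) and Macroh2a1 (0.0608) did not pass, and with isotonic KO array 1 as WT neither did H2ac15 (0.0726) or Macroh2a1 (0.0885). Centring the arrays on their medians shifts the median of all genes by 0.15 and brings 4 members past as higher, H1f6, H1f7, H2ab1 and H2az2, while H2ac15, H4c3 and Macroh2a1 no longer pass as lower.

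Whether the hypertonic response differs between the lines was tested directly, by subtracting the WT change from the KO change. It was lower in KO cells for 6 histone genes and higher for none, against 9.5% of all genes called (6.15% lower and 3.35% higher). They are H1f3 (-2.44 ± 0.50, limma adjusted p = 0.00695), H3c4 (-1.69 ± 0.51, 0.0485), H1f10 (-1.64 ± 0.23, 0.000725), H2bc8 (-1.33 ± 0.31, 0.0149), H3c15 (-1.29 ± 0.29, 0.0117) and H2aw (-1.22 ± 0.33, 0.0304). With the media as labelled, H1f10 was the only 1 of them called in both lines, in opposite directions. The Slc5a3 values ran against the KO media labels, while 765 of the 808 genes called in both lines changed in the same direction under them. If the KO media were exchanged, which was not tested, H1f10 would rise by 0.82 in both lines. The rest rose in WT cells, and in KO cells they did not pass. For H1f2 (-1.20 ± 0.41, limma adjusted p = 0.0841), H2bc18 (-0.75 ± 0.32, 0.18), H2bc4 (-0.61 ± 0.25, 0.16), H2ax (-0.55 ± 0.26, 0.238) and H4c9 (-0.52 ± 0.22, 0.17) a difference between the lines was not shown, although each rose in WT cells. Their 95% intervals run from -2.07 to -0.32 for H1f2 and from -1.11 to 0.01 for H2ax. The median difference was -0.22, against -0.01 over all genes.

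H1f3, H1f10, H2bc8 and H3c15 kept their call without any 1 array. H3c4 lost it without any 1 of the 12 arrays except isotonic WT array 1 and hypertonic WT array 1 (limma adjusted p from 0.0585 to 0.118). H2aw lost it without KO array 1 (0.0644 isotonic, 0.083 hypertonic) or 2 (0.0744 isotonic, 0.0692 hypertonic). It also lost it without hypertonic WT array 1 (0.0657) or 2 (0.0687) and without the isotonic WT arrays 2 (0.0651) or 4 (0.0718). H1f2 passed without hypertonic KO array 4 (-1.62, 0.00363), the array that stood above the others, or isotonic WT array 1 (-1.42, 0.0492), H2bc4 without hypertonic KO array 4 (0.0462), and H2ax without hypertonic WT array 4 (0.0237). H2bc18 passed in the fit blocked by array number (0.0357), where 8.97% of all genes were lower. With isotonic KO array 1 as WT, H2aw (0.0552) and H3c4 (0.109) did not pass, nor did H2aw on the compared groups alone (0.0596). H3c4 did not pass without the dim filter (0.0567), after quantile normalization (0.0666) or with a trended and robust prior (0.0595). Without the arrays numbered 4, 16 members had a lower response in KO cells, against 11.4% of all genes. With centred arrays, which shift the median of all genes by 0.17, H3c4 (0.0643) and H2aw (0.0561) did not pass, and no called member changed sign in any setting.

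Histone genes read only by shared probe sets are not among the 44 members, while many members are also named in shared sets. A further 28 probe sets name several genes with a histone gene among them and were fitted apart. In hypertonic WT cells 3 of the 28 passed, all higher, against 0.987% of the 8512 probe sets fitted with them, and 24 changed by less than 0.5 log2. They were 1 of the 9 probe sets that name the same 12 genes of the H3 family (2.08 ± 0.40, limma adjusted p = 0.0198), the set shared by the H4 genes H4c17 and H4c11 (1.20 ± 0.26, 0.0383) and the set shared by H2bc6 and the linker gene H1f4 (0.88 ± 0.18, 0.0275). The other 8 H3 sets naming those genes, H3c4 and H3c15 among them, changed by -0.11 to 0.70 and did not pass. The H3 set that rose (1.68 ± 0.40, limma adjusted p = 0.0457) and the H2bc6 and H1f4 set (0.84 ± 0.18, 0.0328) rose with Torin1 too, where 1.83% of the 8512 passed. With Torin1 the other 8 H3 sets changed by 0.10 to 0.48 and did not pass. In KO cells the same H3 set rose by 1.55 ± 0.40 (limma adjusted p = 0.0259), and the other 8 changed by -0.55 to -0.01 without a call. A set naming 19 genes, mostly of the H2A family but with H3c4 among them, fell (-0.98 ± 0.25, limma adjusted p = 0.0241). Of the sets that name H3f3b and Gm6485, 1 fell (-0.33 ± 0.09, limma adjusted p = 0.0373) and the other did not pass (-0.17 ± 0.09, 0.275). Of the 8512 probe sets 8.2% were called there. In hypertonic medium 7 of the 28 were lower in the KO line and none higher, against 7.53% of the 8512 called either way. The H3.3 gene H3f3b was lower there in both sets that name it together with Gm6485 (-0.59 ± 0.09 and -0.58 ± 0.09). Shared sets that name H3f3a and Gm12657 differed by 0.03 to 0.16 and did not pass. None passed for the difference of the hypertonic response between the lines, where 0.999% of the 8512 did.

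The genes that make, process and place histones were read beside the family, from 3 lists written with earlier results of these data known. Of 34 tested genes for histone transcription and message processing, 3 rose and 1 fell in hypertonic WT cells, a share of 11.8% called against 8.24% of all genes, with a median change of 0.08. Srrt, which couples the cap-binding complex to RNA processing, rose by 0.73 ± 0.14 (limma adjusted p = 0.00602), Eri1, a nuclease that trims the histone stem-loop, by 0.51 ± 0.12 (0.0155), and Cstf3, a cleavage stimulation factor subunit, fell by 0.79 ± 0.19 (0.0194). In the blocked fit 7 rose and 1 fell, against 7.4% and 7.63% of all genes. Without isotonic WT array 1, 2 or 4, or hypertonic WT array 2, the count of 4 was 2, without hypertonic WT array 1 it was 1, and without hypertonic WT array 4 it was 8. Of 37 chaperone and deposition genes 2 rose and none fell (median 0.03), a share of 5.41% against the same 8.24%. Dnajc9, an H3-H4 co-chaperone, rose by 0.57 ± 0.16 (limma adjusted p = 0.0405) and Supt6, an elongation factor that handles nucleosomes, by 0.36 ± 0.10 (0.0365), and none passed when array 1 or 2 of either WT group was left out. Of 47 genes for DNA replication and S phase none passed, and 8 had an unadjusted limma p below 0.05 (22.7% of all genes had one). Their median change was 0.04 where that of the histone genes was 0.11, and 1 passed without hypertonic WT array 4 or in the blocked fit. Without the arrays numbered 4, the counts of the 3 lists were 12, 6 and 10, and 21.2% of all genes were called.

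In KO cells 30.1% of all genes were called, 12.9% higher and 17.2% lower. Of the 34 message genes 13 rose and 4 fell. Upf1, a helicase of histone message decay, changed by 0.88 ± 0.14 (limma adjusted p = 0.000207) and the transcription factor gene Yy1 by 0.78 ± 0.11 (7.41e-05). Cpsf3, the nuclease that cuts histone messages, changed by -0.76 ± 0.15 (limma adjusted p = 0.00152). Chaperone genes had 9 of 37 higher and 5 lower, among them Ubn1 of the H3.3 deposition complex (0.80 ± 0.17) and Prkdc, a DNA repair kinase (-1.02 ± 0.23). Without hypertonic KO array 1 or 2 the count of 14 was 9. S phase genes had none higher and 8 of 47 lower, a share of 17% close to the 17.2% of all genes lower. Tk1, which makes thymidine phosphate, changed by -1.29 ± 0.23 (limma adjusted p = 0.000635). Uhrf1, which maintains DNA methylation, changed by -1.02 ± 0.31 (limma adjusted p = 0.0199) and the clamp loader gene Rfc5 by -0.78 ± 0.19 (0.0051). Without isotonic KO array 2 the 8 became 2, and without hypertonic KO array 4 they became 4. Without the arrays numbered 4 there were 12 lower and 1 higher, against 20.9% and 16.3% of all genes. The list medians were 0.20 for message genes, 0.12 for chaperones and -0.19 for S phase genes, and the histone median was -0.07.

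**Figure D4:**
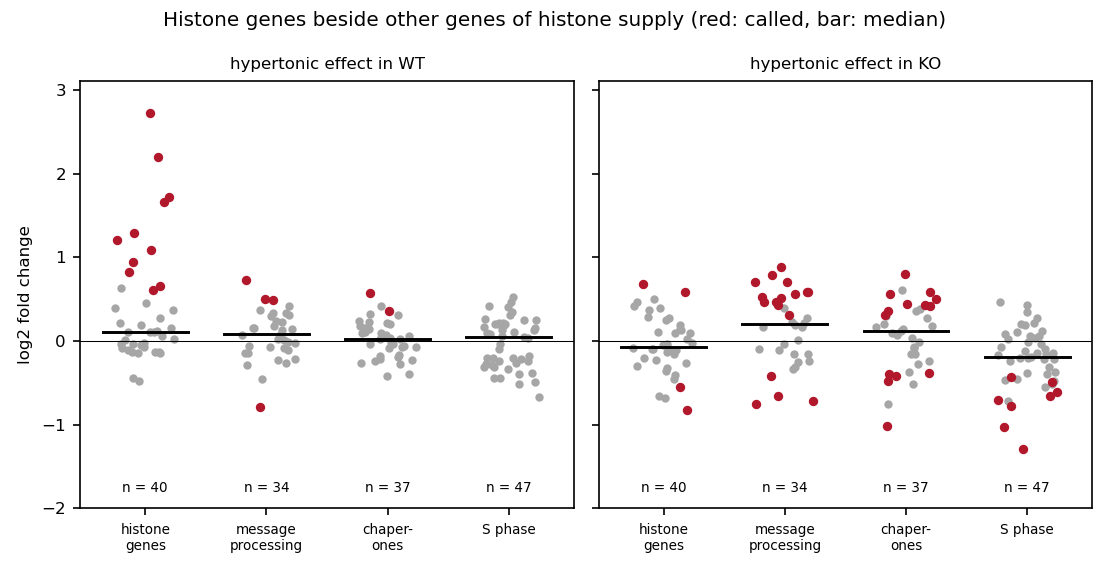
Log2 fold change in hypertonic against isotonic medium (vertical axis) of each tested histone gene and of the genes on 3 lists (message processing, chaperones, S phase), in WT (left) and KO cells (right). Red points passed at a limma adjusted p below 0.05 and bars are medians. In WT cells the points above 1 log2 are histone genes, and the S phase list has no red point.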

How the data were processed

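Levels were read on 18 arrays, 3 per group. The authors deposited log2 values made by RMA, with R 2.11.1 named in the submitters' processing notes, and these were analysed unchanged. RNA was labelled with a whole-transcript kit per the labels. The genome build was not given in the sources used here. Of 34760 probe sets 21640 name 1 gene. Genes whose highest group mean exceeded 5.86 log2, the 30th percentile, were tested (15711). limma 3.58.1 in R 4.3.3 fitted a mean per group (12 residual degrees of freedom, 3.29 prior) and 9 contrasts, with Benjamini-Hochberg adjustment within each, and errors are standard errors. The number of arrays limits the precision. The fit was tested on simulated data.

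Members and lists were chosen with earlier results of these data known. All linker and variant genes, and of the others up to 8 called members per contrast with the largest changes, were to be named, and up to 3 called genes per list and contrast. Same-numbered arrays of compared groups correlated in their deviations from group means at 0.156 to 0.847 over the genes. Each value lay above 0.1, so the numbers pair the arrays, and the labels do not say what they stand for. The main counts leave this pairing out. With it, 9 members in place of 4 passed with Torin1. Lower in KO than WT cells were 23 in place of 17 in hypertonic and 3 in place of 1 in isotonic medium. The hypertonic count in WT cells stayed at 11. Alternatives covered the dim filter, normalization, centring, probe set choice, the prior, the groups fitted, a replicate block, isotonic KO array 1 as WT and each array left out. H1f0 was not analysed here, and H1f4 shares its probe set with H2bc6.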

Additional observations from a re-analysis of the deposited data

Results flagged for a closer look

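The hypertonic response differed between the KO and WT lines in 6 histone genes by the test of that difference (KO change minus WT change with the media as labelled, log2, limma, n = 3 arrays per group). It was -2.44 for H1f3 (limma adjusted p = 0.00695), -1.69 for H3c4 (0.0485), -1.64 for H1f10 (0.000725), -1.33 for H2bc8 (0.0149), -1.29 for H3c15 (0.0117) and -1.22 for H2aw (0.0304). All 3 hypertonic WT arrays lay above all 3 isotonic WT arrays in each of these genes. The genes were called on the same arrays, so this is no separate support.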

How the results depend on the processing

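Over the 43 calls of single histone genes, 429 values were recomputed under other settings: 397 kept sign and call, 32 kept the sign and lost the call, and none changed sign. With 1 array left out 226 of 294 kept the call and none changed sign. For fits with 1 array left out or on the compared groups alone, the share of all genes called was not counted. Whether the counts below moved with that share is therefore not known. Counts of histone genes called ranged with 1 array left out from 7 to 11 for the hypertonic effect in WT cells, from 2 to 4 with Torin1, from 2 to 3 in KO cells, from 1 to 2 for KO against WT in isotonic medium, from 12 to 19 in hypertonic medium, from 4 to 7 for the difference of the responses and from 0 to 1 for Torin1 in hypertonic medium. For the lists the ranges were 1 to 8 message genes, 0 to 2 chaperone genes and 0 to 1 S phase genes in WT cells, and 15 to 17, 9 to 15 and 2 to 8 in KO cells. Fitted on the compared groups alone, 6 histone genes passed in WT cells and 0 with Torin1, and 0 message and 0 chaperone genes in WT cells; such a fit has fewer arrays. With the replicate block, which pairs arrays by number, 9 histone genes passed with Torin1 and 3 for KO against WT in isotonic medium, and 8 message genes and 1 S phase gene in WT cells. With isotonic KO array 1 as WT, 0 passed for KO against WT in isotonic medium. Leaving out the arrays numbered 4, an alternative chosen after seeing the data, gave 9 with Torin1, 11 in KO cells, 4 for Torin1 in hypertonic medium, 8 and 27 for KO against WT in isotonic and hypertonic medium and 16 for the difference. It gave 12 message, 6 chaperone and 10 S phase genes in WT cells and 13 S phase genes in KO cells. Beyond what the construction of a setting shows, the cause was not tested. With 3 arrays per group, small changes of dim members are not detectable here.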
